A study of Mus musculus with 6 samples.

Results

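The facilitative glucose transporters are the products of the Slc2a genes, and 10 of them, Slc2a1, Slc2a2, Slc2a3, Slc2a5, Slc2a6, Slc2a8, Slc2a9, Slc2a10, Slc2a12 and Slc2a13, were followed in isolated mouse pancreatic islets. They were chosen by gene symbol, and each matched 1 row of a count table of 46983 genes. Islets are the endocrine cell clusters of the pancreas. Wild-type islets were held for 24 h in CMRL medium at low (non-stimulating) glucose in 3 libraries and at high (stimulating) glucose in 3 others, and poly-A RNA was counted. Strain, age, mice per library and the glucose concentrations are not given in the sources used here. Labels do not state whether the 3 libraries within a condition are different mice or different dishes. A p-value here sets the group difference against the scatter within the groups of these 6 libraries. That scatter may be technical, so the p-values may not extend to other mice.

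These proteins move sugars down their concentration gradient, without using energy. In rodent beta cells the transporter GLUT2, made from Slc2a2, lets glucose enter fast enough that later steps, not its entry, set the rate of metabolism and so of insulin release. GLUT1, made from Slc2a1, has a higher affinity and serves basal uptake in many cell types. Other members carry fructose (GLUT5, from Slc2a5), urate (GLUT9, from Slc2a9) or myo-inositol together with protons (HMIT, from Slc2a13), or sit on membranes inside the cell (GLUT6 and GLUT8, from Slc2a6 and Slc2a8).

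At high glucose Slc2a2 fell about 45.7-fold and Slc2a1 rose about 7.73-fold, so that the order of their levels was reversed between the groups. All 18 tested markers of intestinal epithelium, which also uses Slc2a2, fell as well (median log2 fold change -5.56). The part of such cells in the fall of Slc2a2 was not tested. Slc2a8 fell 2.11-fold, a call that held in 10 of 17 alternatives, and the remaining members did not pass the test. Of the 10 members 9 had enough reads to be tested, 1 rose and 2 fell, all by edgeR's quasi-likelihood test at an adjusted p under 0.05 over 13996 genes. Across all tested genes 27.5% passed, 13.3% upward and 14.2% downward, so the share of members called was near the background and is no result about the family. The median log2 fold change of the 9 members was -0.38, against 0.01 for all tested genes. Scaled by plain library totals, 3 members passed upward and 1 downward, where 59.6% and 4.49% of all tested genes did. Both sets of shares are the background for the counts of list and marker genes below. The libraries of the groups did not overlap for 3 of the 9 tested members (Slc2a1, Slc2a2 and Slc2a8), with 1 higher and 2 lower, against 45.9% of all tested genes (23.5% higher and 22.4% lower).

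The promoters of the 4 members that rose, fell or were most abundant are given here so that the start regions of Slc2a1 and Slc2a2 can be compared. Each window holds 250 bases before and 50 bases from the transcription start given by RefSeq on GRCm38.p6, written 5′ to 3′ along the gene. Capitals mark matches, on either strand, to 4 motifs. These were the TATA box with the letters TATAAA, the GC box with the letters GGGCGG, the CCAAT box, named by its letters, and the core that hypoxia-inducible factors bind, ACGTG. Sequences were found for 9 of the 10 members.
Slc2a1, chr4:119108495-119108794, + strand: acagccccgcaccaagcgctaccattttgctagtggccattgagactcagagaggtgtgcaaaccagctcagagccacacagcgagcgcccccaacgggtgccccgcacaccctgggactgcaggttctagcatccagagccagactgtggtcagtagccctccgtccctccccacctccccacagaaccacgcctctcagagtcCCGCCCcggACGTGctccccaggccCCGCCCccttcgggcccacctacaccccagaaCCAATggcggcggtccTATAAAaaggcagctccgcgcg
Slc2a2, chr3:28697653-28697952, + strand: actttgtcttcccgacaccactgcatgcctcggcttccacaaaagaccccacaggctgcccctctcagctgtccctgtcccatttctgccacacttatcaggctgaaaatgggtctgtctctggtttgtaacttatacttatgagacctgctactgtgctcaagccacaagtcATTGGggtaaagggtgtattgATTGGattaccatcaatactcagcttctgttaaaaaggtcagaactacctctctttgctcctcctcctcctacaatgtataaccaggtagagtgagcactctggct
Slc2a5, chr4:150119094-150119393, + strand: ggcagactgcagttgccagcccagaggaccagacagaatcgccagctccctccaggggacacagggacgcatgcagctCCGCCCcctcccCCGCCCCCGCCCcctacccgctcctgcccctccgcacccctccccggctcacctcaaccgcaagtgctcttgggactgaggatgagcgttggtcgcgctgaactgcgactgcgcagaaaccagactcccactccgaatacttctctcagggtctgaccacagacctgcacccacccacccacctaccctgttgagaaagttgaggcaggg
Slc2a8, chr2:32982034-32982333, - strand: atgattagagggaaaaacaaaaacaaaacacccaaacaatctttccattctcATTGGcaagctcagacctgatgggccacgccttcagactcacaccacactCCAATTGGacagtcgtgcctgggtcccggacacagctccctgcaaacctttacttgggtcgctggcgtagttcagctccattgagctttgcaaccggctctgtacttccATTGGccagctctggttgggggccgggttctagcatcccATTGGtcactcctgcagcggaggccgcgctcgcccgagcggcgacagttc

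The Slc2a2 window had a GC content of 48.0%, below the median of 52.7% over 32851 promoters, whereas the Slc2a1 and Slc2a5 windows each had 65.3% and the Slc2a8 window 55.7%. In the Slc2a1 window there were 2 GC boxes, a CCAAT box, a TATA box whose first base lay at position 29 after the start, and 1 ACGTG core at position -36. The Slc2a2 window had 2 CCAAT boxes and none of the other 3 motifs, and Slc2a8 had 5 CCAAT boxes, 2 of which share bases. Slc2a5 had 3 GC boxes. Over all promoters of this length, 13.6% hold TATAAA, 35.7% GGGCGG, 37.4% CCAAT and 19.6% ACGTG. A further 3 motifs, not in capitals, were searched on both strands: TAAT, the core of many homeodomain factors including Pdx1 (58.0% of promoters), CANNTG, the E-box (72.3%), and TGANTCA, the AP-1 site (7.81%). TAAT and CANNTG each occurred in the Slc2a2 and Slc2a8 windows and CANNTG in that of Slc2a5, and TGANTCA in none of the 4. The TAAT match of the Slc2a2 window directly follows its nearer CCAAT match and shares no base with it, and the CANNTG match of Slc2a8 shares bases with its overlapping CCAAT pair. These matches describe letters in the windows only.

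Library totals ran from 10596020 to 15846235 counts. The labels name beta cells and islets, and beta-cell markers were present in every library, with 95281 to 603694 counts of Ins2. Acinar-cell markers, mostly genes of secreted pancreatic enzymes, took 53.4% to 70.3% of the counts at low and 13.6% to 27.1% at high glucose. The TMM scaling used for CPM (counts per 1000000 of the scaled library) resizes whole libraries and does not remove such differences in make-up. After it, 32 of the 36 acinar markers fell, with a median log2 fold change of -2.82. With plain library totals the median log2 fold change of all tested genes moved from 0.01 to 1.16, and every direction below is relative to TMM. High glucose replicate 1 had the 13.6%, against 26.4% and 27.1% in the others of its group. In bulk samples, fewer cells of a type and less RNA per cell cannot be told apart.

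Slc2a2 lies on chromosome 3 (28697903 to 28731359, plus strand, GRCm38) and shares no exon bases with another gene. The low glucose libraries, in order of replicate, held 3364, 1105 and 845 of its reads and the high glucose libraries 149, 85 and 70. Scaled, these were 282, 184 and 133 CPM at low and 5.27, 4.24 and 3.53 CPM at high glucose. The lowest of the low glucose libraries was far above the highest of the others. The log2 fold change (high minus low) was -5.51 ± 0.35 (SE), with an edgeR adjusted p of 4.01e-04. Over the 17 alternatives it stayed between -5.72 and -4.45 and passed in each, including with library totals (-4.45) and when the sizes were set by islet hormone and granule genes (-5.63).

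Slc2a1 lies on chromosome 4 (119108711 to 119137983, plus strand) and shares 105 of its 3506 exon bases with an antisense gene, Gm12868. Whether reads there were told apart depends on the strand setting of the counts, which is not given. Slc2a1 had 96, 68 and 69 counts at low and 1676, 1503 and 1927 at high glucose. The CPM were 8.03, 11.3 and 10.9 at low and 59.3, 75.0 and 97.1 at high glucose. All 3 high glucose libraries stood above all 3 low glucose ones. The log2 fold change was 2.95 ± 0.24 (SE, adjusted p = 6.39e-04 by edgeR), and it ranged from 2.76 to 4.11 over the 17 alternatives, passing in each. Endothelial cells also use GLUT1, and of 8 endothelial markers 7 were tested, of which none rose and 2 fell, with summed levels of 240 to 287 CPM at low and 127 to 267 CPM at high glucose. Of 8 duct-cell markers, all tested, 3 rose and none fell, with summed levels of 614 to 850 CPM at low and 729 to 1436 CPM at high glucose. The part of either cell type in the rise of Slc2a1 was not tested.

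A ratio of these genes within a library does not depend on scaling. Per kb of exon, Slc2a2 stood at 21.3, 9.90 and 7.46 times Slc2a1 in the libraries kept at low glucose. In those kept at high glucose it stood at 0.0542, 0.0345 and 0.0221 times Slc2a1. The order of the pair was thus turned over in all 3 high glucose libraries. The log2 ratio averaged 3.54 (SD 0.78, n = 3) in the former and -4.85 (SD 0.65, n = 3) in the latter, a difference of -8.40. The exact two-sided permutation test gave p = 0.1, the smallest value that 3 against 3 libraries allow.

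**Figure D1:**
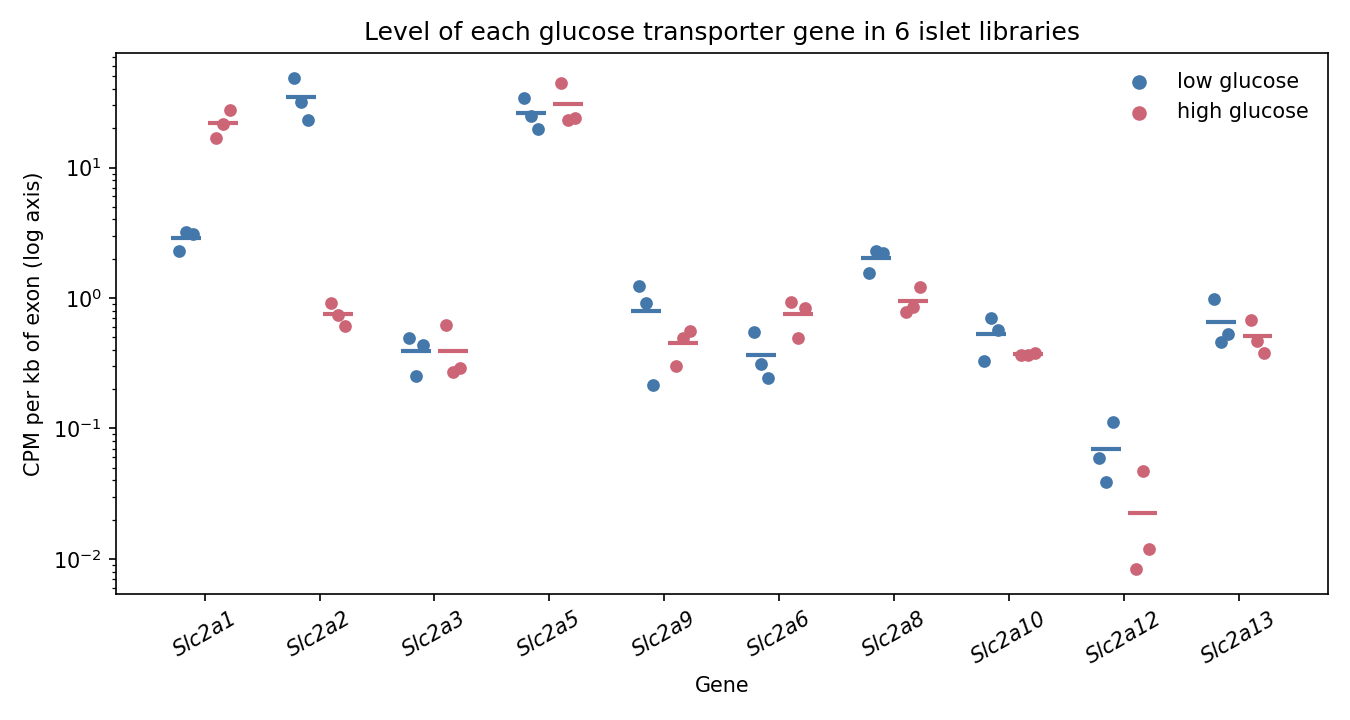
CPM per kb of exon (log axis) of each of the 10 genes, with 1 point per library and a bar at the group mean, low glucose in blue and high glucose in red. Slc2a2 dropped from a mean of 34.6 to 0.755 CPM per kb while Slc2a1 went from 2.87 to 22.0, and Slc2a5 lay at 26.3 and 30.5.

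Divided by exon length, levels can be set beside each other between genes. At low glucose the order was Slc2a2 (34.6 ± 13.1 CPM per kb, SD, n = 3) and Slc2a5 (26.3 ± 7.44), whose libraries overlapped although Slc2a2 was the higher in all 3, then Slc2a1 (2.87 ± 0.51) and Slc2a8 (2.02 ± 0.39), which did not overlap. Slc2a9 (0.789 ± 0.521), Slc2a13 (0.658 ± 0.290), Slc2a10 (0.533 ± 0.188), Slc2a3 (0.394 ± 0.127) and Slc2a6 (0.368 ± 0.159) followed, each overlapping the next. Slc2a12 came last with 0.0699 ± 0.0372. At high glucose Slc2a5 (30.5 ± 12.2) came first and Slc2a1 (22.0 ± 5.42) second, and these overlapped. Far below them stood Slc2a8 (0.949 ± 0.228), Slc2a2 (0.755 ± 0.152) and Slc2a6 (0.752 ± 0.225), which could not be ordered beyond their spread.

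As a share of the summed CPM per kb of the 10 genes, Slc2a2 made up 53.8%, 49.2% and 45.9% in the low glucose libraries and 1.39%, 1.53% and 1.10% in the high glucose ones. Slc2a1 made up 2.52%, 4.97% and 6.16% at low and 25.6%, 44.3% and 49.7% at high glucose. The share of Slc2a5 was 37.9%, 38.2% and 39.3% at low and 67.5%, 48.0% and 42.7% at high glucose. The share of Slc2a2 thus shrank and that of Slc2a1 grew, while Slc2a5 stayed a major part throughout. At high glucose Slc2a5 had the highest mean share (52.7%), though Slc2a1 stood above it in replicate 3. The sum itself was 90.9, 64.9 and 50.3 CPM per kb at low and 66.1, 48.3 and 55.8 at high glucose, and the groups overlapped.

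**Figure D2:**
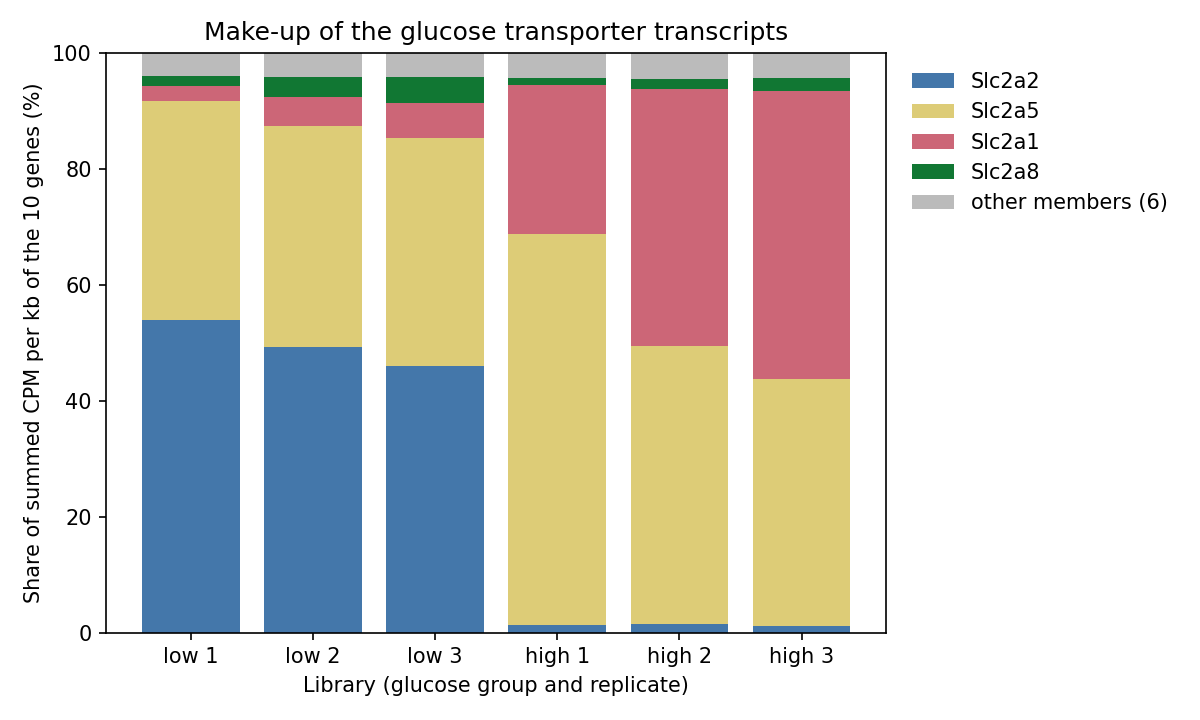
Stacked bars of the share (%) of each gene in the summed CPM per kb of the 10 genes, 1 bar per library. Slc2a2 fills 45.9% to 53.8% of the low glucose bars and 1.10% to 1.53% of the high glucose bars, where Slc2a1 fills 25.6% to 49.7%.

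Slc2a5, on chromosome 4 (150119283 to 150144169, plus strand), encodes the fructose carrier of the small intestine and was among the most abundant members in both groups. It had 117, 84.3 and 67.3 CPM at low and 152, 78.8 and 81.0 CPM at high glucose. The groups overlapped, and in each of them replicate 1 was the highest. The log2 fold change was 0.21 ± 0.32 (SE), with a 95% interval of -0.53 to 0.95 and an adjusted p of 0.651 by edgeR. It was 0.02 when hormone and granule genes set the scale, and -0.17 without high glucose replicate 1. By library totals it passed at 1.34, which is near the shift of all genes there. Slc2a9, the urate carrier gene on chromosome 5 (38349273 to 38503143, minus strand), had 6.28, 4.65 and 1.10 CPM at low and 1.52, 2.496 and 2.82 CPM at high glucose, and did not pass (-0.84 ± 0.57). Low glucose replicate 3 stood below all high glucose libraries and the other two above them.

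Slc2a3, on chromosome 6 (122727809 to 122801640, minus strand), encodes GLUT3, the high-affinity carrier of neurons. Its levels of 3.60, 1.83 and 3.14 CPM at low and 4.53, 1.95 and 2.12 CPM at high glucose overlapped, with a log2 fold change of -0.01 ± 0.44 and a 95% interval of -1.04 to 1.03.

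Of the carriers on inner membranes, Slc2a8 lies on chromosome 2 (32972990 to 32982083, minus strand) and had 5.02, 7.31 and 7.08 CPM at low and 2.51, 2.75 and 3.88 CPM at high glucose. The groups did not overlap. Its log2 fold change was -1.08 ± 0.29, with an edgeR adjusted p of 0.0321 under TMM, and 0.10 with library totals. It no longer passed when low glucose replicate 2 (-0.97) or 3 (-0.99) was left out, without high glucose replicate 2 (-1.003) or 3 (-1.28), with hormone and granule gene scaling (-1.17), and with no filter on low counts (-0.98). Slc2a6, also on chromosome 2 (27021363 to 27027998, minus strand), had 1.76, 0.997 and 0.786 CPM at low and 2.97, 1.60 and 2.67 CPM at high glucose. 1 pair of libraries crossed between the groups, and the log2 fold change of 0.97 ± 0.43 did not pass (adjusted p = 0.132 by edgeR). It passed with library totals only (2.06). In mouse, Slc2a6 is known from inflammatory macrophages, and of 10 macrophage markers 2 rose and 1 fell, with summed levels of 169 to 245 CPM at low and 65.6 to 213 CPM at high glucose. Their part in the Slc2a6 values was not tested.

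Slc2a13, the proton and myo-inositol carrier gene on chromosome 15 (91267696 to 91573261, minus strand), had 8.29, 3.82 and 4.40 CPM at low and 5.70, 3.94 and 3.17 CPM at high glucose. Slc2a10, on chromosome 2 (165503787 to 165519917, plus strand), is the gene mutated in the human arterial tortuosity syndrome and had 1.17, 2.49 and 2.04 CPM at low and 1.31, 1.30 and 1.36 CPM at high glucose. Both overlapped between the groups and neither passed, with log2 fold changes of -0.38 ± 0.38 and -0.49 ± 0.38. Slc2a12, on chromosome 10 (22645011 to 22704285, plus strand), shares 407 exon bases with Tbpl1 and was too rare to test. In sum 7 reads were counted at low and 6 at high glucose. After TMM scaling the low glucose level was 3.27 times the other, with an exact 95% interval of 0.941 to 11.8 that covers counting error only.

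**Figure D3:**
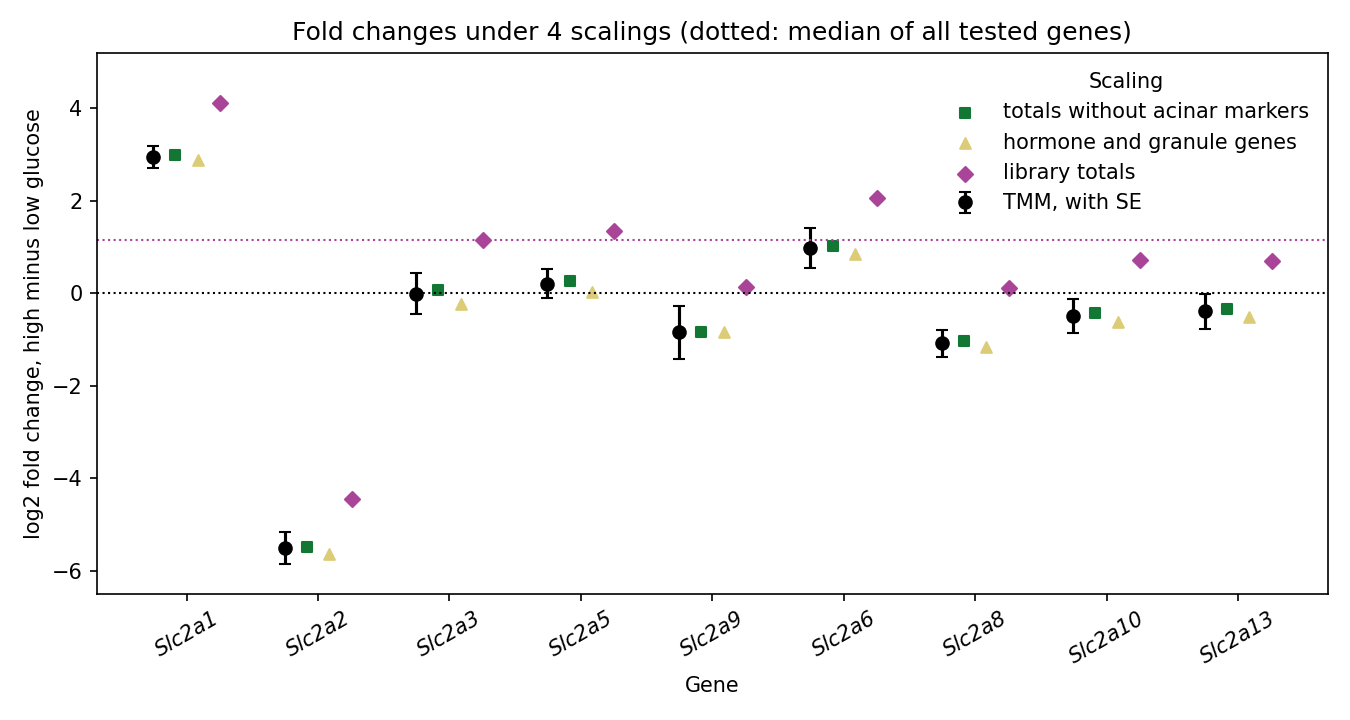
log2 fold change (high minus low glucose) of the 9 tested members under TMM (black, with SE), totals without acinar markers, hormone and granule genes, and library totals. Dotted lines mark the median of all genes under TMM (0.01) and library totals (1.16). Slc2a1, Slc2a2, Slc2a5 and Slc2a6 keep their direction under all 4, and of these only Slc2a1 and Slc2a2 pass under each.

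A further 2 family genes in the table, Slc2a4 and Slc2a7, did not reach the filter. Slc2a4, which encodes the insulin-responsive carrier of muscle and fat, had 1 to 7 counts per library. Its scaled low to high ratio was 3.23, with an exact 95% interval of 1.43 to 7.38 for counting error. The CPM of the groups did not overlap for this gene. Slc2a7 counts were 59, 13 and 0 at low against 1, 0 and 0 at high glucose, a scaled low to high ratio of 202 with an exact 95% interval of 35.1 to 8077 for counting error.

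Enterocytes of the small intestine and hepatocytes also use Slc2a2, and markers of the former moved with it. Of 20 intestinal epithelium markers 18 were tested and all 18 of these fell, with a median log2 fold change of -5.56, beside -5.51 for Slc2a2. Their summed level was 7425, 5739 and 2577 CPM at low and 268, 177 and 183 CPM at high glucose, and the defining gene Sis, which encodes sucrase-isomaltase, had 4, 0 and 0 counts at high glucose. Per 100 CPM of these markers, Slc2a2 had 3.79, 3.20 and 5.16 CPM at low and 1.96, 2.40 and 1.92 CPM at high glucose, and the groups did not overlap. Both Slc2a2 and the marker sum were highest in replicate 1 of each group. Of 12 hepatocyte markers 5 were tested and 3 fell, and their summed level was 83.2 to 772 CPM at low and 7.94 to 15.8 CPM at high glucose. Of these 12, 1 (Hpd) was at 0 in all low glucose libraries and 2 (Hpd and Cps1) in all high glucose ones. Cps1, also of the gut, had 550 counts at low glucose. Beta-cell markers moved as well: of 12, all tested, 6 fell and 1 rose, with a median log2 fold change of -1.14 and summed levels of 26941 to 34740 CPM at low and 18067 to 40280 CPM at high glucose. The part of any of these cell types in the fall of Slc2a2 was not tested.

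By likeness of log2 CPM over the 6 libraries, the genes closest to Slc2a2 among 8348 genes of at least 10 CPM were Sis (Pearson r = 0.999), Muc13 (0.999), an epithelial mucin gene, and Oit1 (0.999). The closest to Slc2a1 were Cd14 (0.998), Rabif (0.997) and Ap1s1 (0.997), of which Cd14 encodes an endotoxin co-receptor and rose by 4.01 on the log2 scale. Those closest to Slc2a5 were BC005537 (0.997), Prkca (0.994) and Alg2 (0.994), and none of these 3 passed the test between the groups. The points share libraries and the group difference, and 391 genes had an r over 0.95 with Slc2a2 and 485 with Slc2a1, so the ranking is a description only.

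Sodium-coupled carriers bring sugar in against its gradient. Of 8 such sugar and inositol transporter genes 2 were tested, and Slc5a1, the glucose and galactose carrier of the gut, fell by 7.15 ± 0.62 on the log2 scale. It had 263, 180 and 64.5 CPM at low and 0.814, 1.35 and 1.46 CPM at high glucose, beside the fall of the intestinal markers. The part of intestinal cells in the fall of Slc5a1 was not tested. The inositol carrier gene Slc5a3 (0.52 ± 0.30), the other gene tested, did not pass. The number of the list that fell was 5 with no filter on low counts and 5 when low glucose replicate 3, high glucose replicate 1 or high glucose replicate 2 was dropped. It was 3 with totals without acinar markers, under scaling by hormone and granule genes and when high glucose replicate 3 was dropped. By library totals 1 rose, where 59.6% of all tested genes did.

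Of 13 transcription factor genes that regulate Slc2a2 in beta cells or liver, 5 fell and none rose, where 14.2% and 13.3% of all tested genes did. Their median log2 fold change was -0.48, against 0.01 for all genes. The replicate block gave 1 that rose and 7 that fell. Library totals gave 6 and 3, where 59.6% and 4.49% of all tested genes passed. With 1 library left out 2 (without low glucose replicate 2) to 7 (without high glucose replicate 1) fell. Mafa, a beta-cell activator, fell from 92.3 ± 3.00 to 6.89 ± 2.16 CPM (SD, n = 3 each). Mlxipl, which encodes the glucose-sensing factor ChREBP, fell by 2.95 ± 0.39 on the log2 scale. Onecut1, a hepatic and pancreatic factor gene, fell by 2.62 ± 0.55, a call lost without low glucose replicate 2 (-2.47). The other 2 that fell were Pdx1 and Hnf4a, both chosen for mention after their values were seen. Neither passed with library totals (-0.12 and -0.34). Pdx1 was also not called without low glucose replicate 1 (-1.13) or 2 (-1.31). Hnf4a also missed the threshold when low glucose replicate 1 (-1.21) or 2 (-1.32) was left out, without high glucose replicate 3 (-1.31) or with hormone and granule gene scaling (-1.35). Foxa2 (-0.21 ± 0.17), also named after its values were seen, did not pass.

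**Figure D4:**
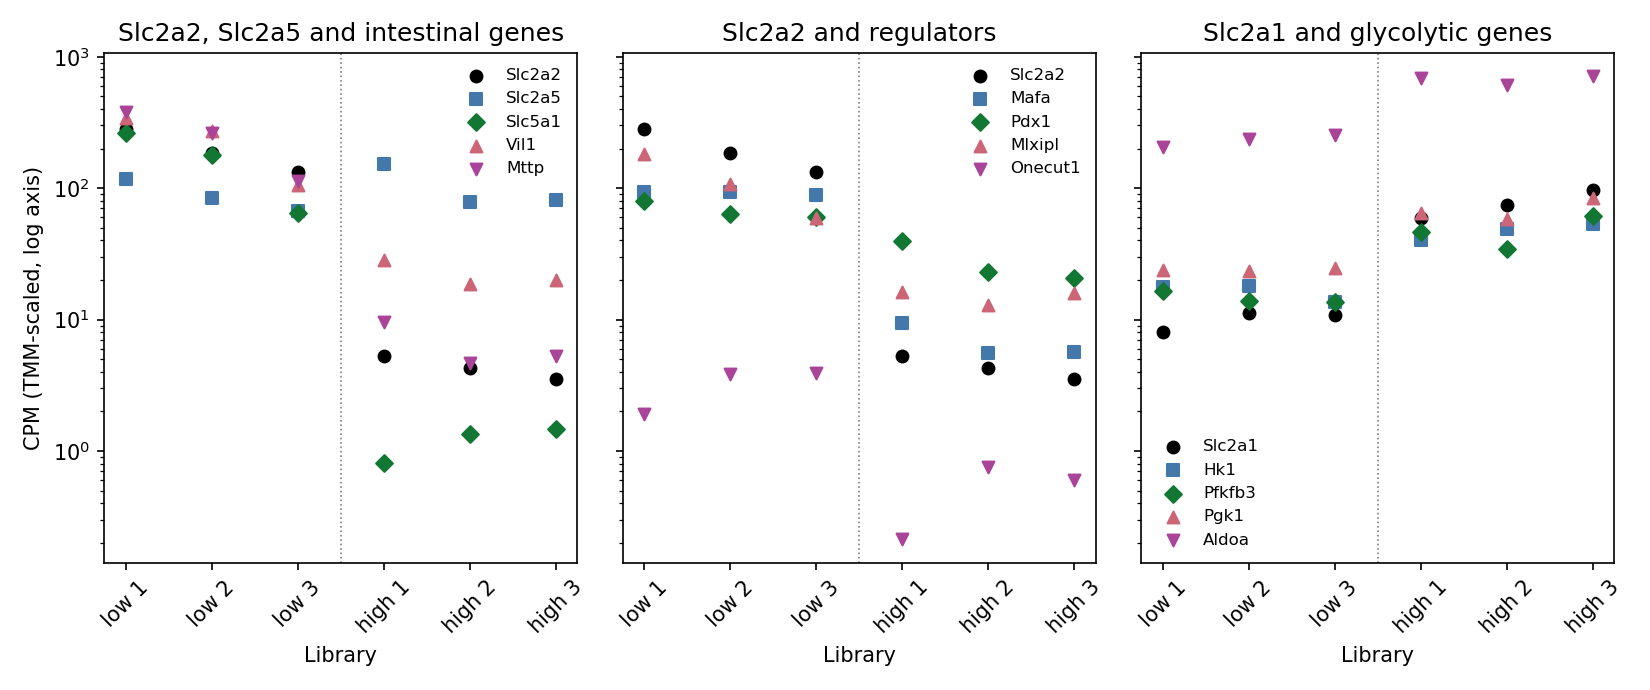
TMM-scaled CPM (log axis) of single genes by library, low glucose left and high glucose right of each dotted line. Slc2a2 drops beside the intestinal genes Slc5a1, Vil1 and Mttp while Slc2a5 does not (left), Slc2a2 is drawn with 4 regulators (middle), and Slc2a1 rises beside Hk1, Pfkfb3, Pgk1 and Aldoa (right).

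Among 14 genes that act on glucose transporters at the cell surface, 1 rose and 2 fell, with a median log2 fold change of 0.07. Of all tested genes 13.3% rose and 14.2% fell, so these counts are no result about the list. With library totals 11 rose and 1 fell, where 59.6% and 4.49% of all tested genes did. With hormone and granule gene scaling none rose and 1 fell, and with the replicate block 2 rose. With totals without acinar markers, no filter or DESeq2, 3 rose. Without high glucose replicate 1, 3 rose and 3 fell, and without low glucose replicate 2 or 3 or high glucose replicate 3 only 1 fell. Mgat4a, which encodes a glycosyltransferase that keeps GLUT2 at the beta-cell surface in mouse, fell from 61.4, 66.8 and 60.2 CPM to 11.8, 13.5 and 11.2 CPM (-2.37 ± 0.14). Txnip, whose product promotes the internalization of GLUT1, had 909, 1339 and 1328 CPM at low and 86.4, 369 and 353 CPM at high glucose. It fell by 2.15 ± 0.54 on the log2 scale, and it did not pass with library totals (-1.02), under scaling by hormone and granule genes (-2.11), or when low glucose replicate 2 (-2.05), low glucose replicate 3 (-2.05) or high glucose replicate 3 (-2.38) was left out. Its relative Arrdc4 rose by 1.24 ± 0.20, except with hormone and granule gene scaling, where it did not pass (1.21).

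Hexokinases trap the sugar that the transporters admit. Of 10 hexokinase genes and their regulators 9 were tested, and 2 rose and 3 fell, where 13.3% and 14.2% of all tested genes did. With library totals 6 rose and 1 fell, where 59.6% and 4.49% of all tested genes did. Hk1, the gene of a high-affinity hexokinase, rose by 1.53 ± 0.18. Hk2 (1.00 ± 0.32) missed the threshold with an edgeR adjusted p of 0.0548, and passed with the replicate block (1.07) and with DESeq2 (0.99), limma-voom (1.18), no filter (1.10), totals without acinar markers (1.07), library totals (2.24), and without low glucose replicate 3 (1.32) or high glucose replicate 1 (1.09). Pfkfb3, which makes an activator of glycolysis, rose by 1.69 ± 0.23, and its relative Pfkfb4 fell by 1.71 ± 0.25, but did not pass with library totals (-0.59).

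Slc2a1 and Slc2a3 are known targets of hypoxia-inducible factors, and Slc2a3 did not pass (-0.01 ± 0.44). Of 24 other target genes 10 rose and 1 fell, where 13.3% and 14.2% of all tested genes did. Their median log2 fold change was 0.72, against 0.01 for all genes. With 1 library left out 6 (when either low glucose replicate 2 or high glucose replicate 3 was dropped) to 11 rose. With library totals 20 rose and none fell, where 59.6% and 4.49% of all tested genes did. With the replicate block 12 rose and 2 fell. The glycolytic genes Pgk1 (1.52 ± 0.17) and Aldoa (1.53 ± 0.20) were among those that rose, as was Pfkfb3. The hexokinase and hypoxia lists share Hk2, Pfkfb3 and Pfkfb4. The part of hypoxia-inducible factors in the rise of Slc2a1 was not tested.

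For fructose, the sugar of Slc2a5, 7 of 8 genes of its metabolism fell and 1 rose, where 14.2% and 13.3% of all tested genes did. The median log2 fold change of the list was -2.29, against 0.01 for all genes. With library totals 3 fell and 1 rose, where 4.49% and 59.6% of all tested genes did. None rose when hormone and granule genes set the scale, and 5 (without low glucose replicate 2) to 7 fell with 1 library left out. Khk, the ketohexokinase gene that starts fructose breakdown, fell from 49.5, 36.6 and 18.7 CPM to 3.96, 3.00 and 3.23 CPM. Sord, which makes fructose from sorbitol, fell by 2.93 ± 0.19, and Tkfc, a triokinase gene, by 1.73 ± 0.25, though Tkfc did not pass with library totals (-0.64). Several genes of this list are also abundant in enterocytes, and the intestinal markers given above fell as well. Slc2a5 did not pass. The part of intestinal cells in the fall of these genes was not tested.

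Around Slc2a13, 6 of 8 inositol handling genes were tested and 1 fell, where 14.2% of all tested genes did. With library totals 4 rose and none fell, where 59.6% and 4.49% of all tested genes did. With 1 library left out the number that fell was 0 (without low glucose replicate 2) to 2 (without low glucose replicate 3 or any one of the high glucose libraries), and 1 rose without high glucose replicate 1. It was also 2 with totals without acinar markers, hormone and granule gene scaling or no filter. The gene that fell was Itpk1, an inositol phosphate kinase gene, at -1.56 ± 0.32, and its call did not hold without low glucose replicate 2 (-1.48) or with library totals (-0.48). Around Slc2a9, 2 of 8 urate handling genes were tested and both fell, where 14.2% of all tested genes did. These were the urate exporter gene Abcg2 (-2.55 ± 0.27) and the xanthine dehydrogenase gene Xdh (-3.22 ± 0.55). Xdh had 272, 286 and 81.8 CPM at low and 33.9, 12.9 and 22.0 CPM at high glucose.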

How the data were processed

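Polyadenylated RNA of 6 islet samples was measured. The deposited values are raw counts of reads per gene. Per the submitters' processing notes, STAR 2.7.3a, HTSeq 0.6.1p1 and GRCm38 were used; not given in the sources used here: annotation release, strand setting, filters, use of molecular barcodes. Count-based intervals express counting error alone.

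Columns were matched to samples by name. Names, coordinates and exon lengths came from GENCODE M21 (GRCm38), and 495 genes had no name. High and low glucose were compared with edgeR 4.0.16 in R 4.3.3 (quasi-likelihood F-test, TMM, filterByExpr with minimum count 10 and total 15, Benjamini-Hochberg over 13996 genes, threshold 0.05). Each SE was obtained from the log2 fold change and its F statistic. Alternatives were 5 other scalings, 2 other filters, DESeq2 1.42.0, limma-voom (3.58.1), a robust fit, a replicate block and each library left out, and were extended to the lists after the data were examined. The members and lists were chosen with earlier results of these data known. Named genes were all members, Txnip, Hk1, Hk2 and 1 further gene not reported here, up to 3 called genes per list by p, and the 3 genes most alike (log2 CPM, prior count 2) to each of the 3 most abundant members. Of 268 list entries 267 matched, 2 by synonym.

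Same-numbered libraries deviated together (r of 0.40, 0.26 and 0.25, other pairs -0.31 to 0.07). Deviations from a mean of 3 libraries are tied to each other, so this is no test of pairing. No label states a pairing, so the main fit was unpaired and the replicate block was an alternative only. No pair of libraries agreed within sampling noise (chi-square per degree of freedom at least 17.4). On simulated counts for these 13996 genes, with 200 of them changed, 98 of 100 changes of 8-fold and 13 of 100 of 2-fold were recovered. In the data 3848 genes passed, which makes the adjusted threshold easier to reach, so these shares do not carry over. How often small changes were missed in the data was not measured. Figures used matplotlib 3.10.9.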

Additional observations from a re-analysis of the deposited data

How the results depend on the processing

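Over the 17 alternatives Slc2a1 and Slc2a2 kept their direction and their call. The replicate block gave 2.92 for Slc2a1 and -5.48 for Slc2a2 and changed no other member's call. With library totals 3 members rose and 1 fell, and 8337 of all genes rose and 628 fell. Slc2a3 (1.15), Slc2a8 (0.10), Slc2a9 (0.14), Slc2a10 (0.73) and Slc2a13 (0.69) changed sign there, all below the shift of all genes (1.16). Only 1 member fell with hormone and granule gene scaling, where 553 of 14168 genes rose and 1696 fell. The same held with no filter, where 2282 of 23293 genes rose and 2151 fell. Leaving out 1 library gave 1 or 2 members lower, always 1 higher, and among all genes 708 to 2793 higher and 1035 to 2892 lower. Slc2a3, with a log2 fold change near 0, turned positive with totals without acinar markers (0.0652), with no filter (0.0848), and without low glucose replicate 1 (0.22) or 3 (0.08) or high glucose replicate 2 (0.21) or 3 (0.18). Its range with 1 library left out was -0.52 to 0.22. Slc2a13 ranged from -0.66 to 0.0621 and Slc2a5 from -0.17 to 0.46. The Slc2a2 to Slc2a1 log2 ratio difference was -8.40 with the raw counts and over same-numbered pairs, since length and pairing cancel, and -8.72 to -7.96 with 1 library left out. The cause of these shifts was not tested. Members under 10 CPM rest on 5 to 161 counts per library (1 to 4 for Slc2a12), which limits what can be detected.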
